A study of Mus musculus with 6 samples.

Results

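Transcripts of 10 activity-dependent immediate early genes were examined in chronic stroke infarcts and in the cortex of the opposite hemisphere. The genes were chosen by name as a known class, not by a threshold on their counts, and comprise *Fos*, *Fosb*, *Junb*, *Egr1*, *Egr2*, *Egr3*, *Egr4*, *Arc*, *Npas4*, and *Nr4a1*. All 10 were found among the 46078 genes of the count tables, and all 10 passed the filter on low counts that left 15554 genes for testing. Bulk RNA-Seq had been performed on 3 infarcts and 3 contralateral cortices of wild-type male C57BL/6J mice, whose age is given as 3 months, at 7 weeks after stroke. Stroke had been induced by permanent occlusion of the distal middle cerebral artery followed by hypoxia, so the contralateral samples also came from operated animals that had been through hypoxia and are not naive cortex. No drug treatment is named in the labels of these 6 samples. The mice were killed under isoflurane and perfused with saline, and the labels do not state which infarct and which contralateral cortex shared a mouse.

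Immediate early genes are transcribed within minutes of a stimulus without the need for new protein synthesis. In cortical neurons, calcium entry through NMDA receptors and voltage-gated calcium channels activates kinases that act on CREB, SRF, and MEF2 at their promoters, and the transcripts decay again quickly. Most of the products are transcription factors that control a later set of genes, and ARC acts directly at the synapse. Several of these genes also respond to growth factors, cytokines, and stress in glia, macrophages, fibroblasts, and endothelium, whereas *Npas4* is known for its dependence on depolarization in neurons.

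The 10 genes did not move together. In infarcts, 7 of them were downregulated (*Fosb*, *Egr1*, *Egr3*, *Egr4*, *Arc*, *Npas4*, and *Nr4a1*), *Egr2* was upregulated, and *Junb* and *Fos* were not called. A gene was called when its fold change in either direction exceeded 2 and its Benjamini-Hochberg adjusted *p* from the quasi-likelihood test of edgeR was under 0.05. At these thresholds 20.9% of all tested genes were downregulated and 25.7% were upregulated. The median log2 fold change of the 10 genes was -2.06, compared with 0.03 over all tested genes. For the same 7 genes every infarct library lay below every contralateral library, as it did for 34.7% of tested genes. For *Egr2* and *Junb* every infarct library lay above, as for 37.6% of tested genes, and only for *Fos* did the regions overlap. Levels are given as CPM, counts scaled to a common library size by the TMM method. Without the fold threshold, the calls were the same 7 genes lower, against a background of 30.8%, and *Egr2* and *Junb* higher, against 34.2%. In bulk tissue, fewer cells of a type and less RNA per cell cannot be told apart.

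**Figure D1:**
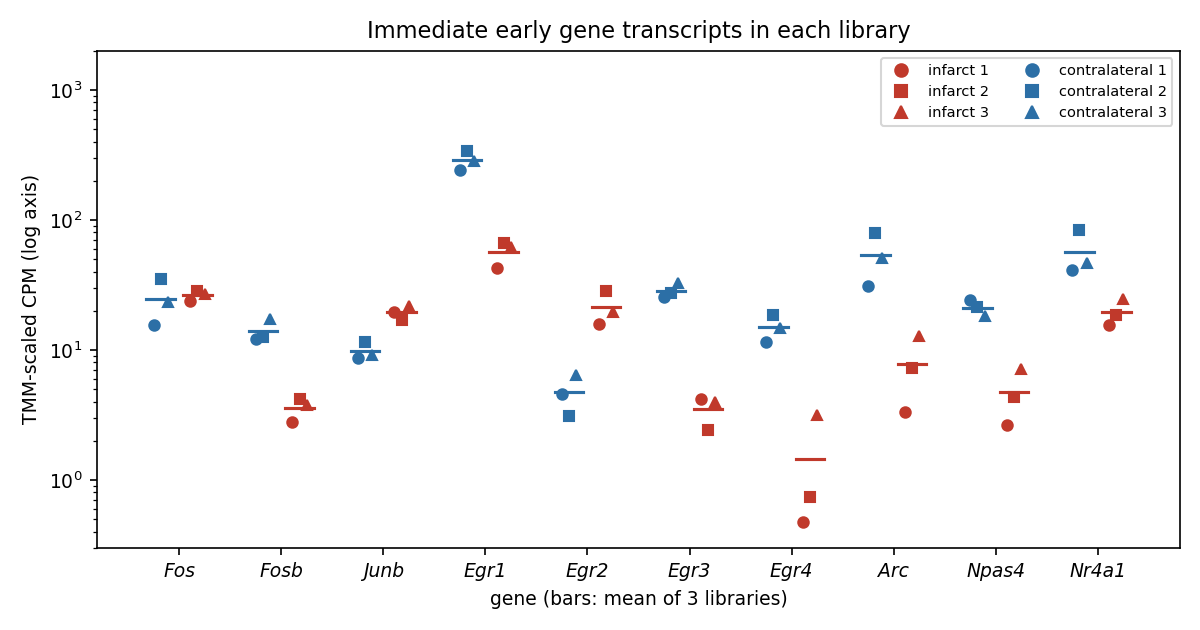
Expression of the 10 immediate early genes in CPM (log axis) in each of 3 contralateral (blue) and 3 infarct (red) libraries, with bars at the mean of each region. The infarct points lie below the contralateral points for 7 genes, above them for *Egr2* and *Junb*, and among them for *Fos*.

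Libraries held 12146959 to 13427057 counts on genes in infarcts compared with 11943570 to 19933962 contralaterally. The 10 genes took 0.0135% to 0.0203% of these in infarcts and 0.0400% to 0.0581% in contralateral cortices. Neuronal transcripts were low but present in every infarct. The summed CPM of 10 pan-neuronal markers was 748, 1027 and 1811 in infarcts 1, 2 and 3, against 9463 to 10188 in contralateral cortices, and none of the markers was at 0 counts in any library. Infarct 3 thus stood apart with more neuronal transcripts than the other infarcts. Its summed level of excitatory neuron markers was 1164 CPM, against 353 and 424 CPM in infarcts 1 and 2. Of the 10 immediate early genes, *Junb*, *Egr4*, *Arc*, *Npas4*, and *Nr4a1* were also highest in infarct 3 among the infarcts. The fold changes of these genes are therefore also given without infarct 3.

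To show the control regions of genes that behaved differently here, promoter windows were taken from RefSeq on GRCm38.p6, in which 7 of the 10 genes were matched, with 11 windows in all. Each window holds 250 bases before and 50 bases after a transcription start and is written 5′ to 3′ on the strand of the gene. *Egr2* was upregulated, *Fos* was not called, and *Npas4* and *Nr4a1* were downregulated. Capitals mark TGACG on either strand, the shared part of CREB sites, and the CArG box, the core of SRF sites.

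*Fos*, chr12:85473640-85473939, plus strand: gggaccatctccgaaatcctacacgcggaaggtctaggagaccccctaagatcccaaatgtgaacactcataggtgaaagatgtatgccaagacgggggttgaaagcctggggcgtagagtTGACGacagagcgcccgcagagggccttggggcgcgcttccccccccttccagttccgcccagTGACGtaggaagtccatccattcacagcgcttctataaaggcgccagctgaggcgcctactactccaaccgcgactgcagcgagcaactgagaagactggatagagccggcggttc

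*Egr2*, chr10:67537619-67537918, plus strand: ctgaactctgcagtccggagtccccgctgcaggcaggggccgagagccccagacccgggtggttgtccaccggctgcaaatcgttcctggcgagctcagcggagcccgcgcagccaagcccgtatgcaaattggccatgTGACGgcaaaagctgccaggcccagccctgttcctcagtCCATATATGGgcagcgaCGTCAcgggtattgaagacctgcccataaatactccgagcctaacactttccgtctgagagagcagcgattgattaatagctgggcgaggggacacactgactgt

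*Npas4*, chr19:4989922-4990221, minus strand: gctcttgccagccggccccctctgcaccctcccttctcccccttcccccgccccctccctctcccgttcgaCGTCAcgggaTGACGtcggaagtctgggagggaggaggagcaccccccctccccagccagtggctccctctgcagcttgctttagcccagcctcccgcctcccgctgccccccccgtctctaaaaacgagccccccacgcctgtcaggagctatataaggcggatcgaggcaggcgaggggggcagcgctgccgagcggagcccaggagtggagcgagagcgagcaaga

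*Nr4a1*, chr15:101266596-101266895, plus strand: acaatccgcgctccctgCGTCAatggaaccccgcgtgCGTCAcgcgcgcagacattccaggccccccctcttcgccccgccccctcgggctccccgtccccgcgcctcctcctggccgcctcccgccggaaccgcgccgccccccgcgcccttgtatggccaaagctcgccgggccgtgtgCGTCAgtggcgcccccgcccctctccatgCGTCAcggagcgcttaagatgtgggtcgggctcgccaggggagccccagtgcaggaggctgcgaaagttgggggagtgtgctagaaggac

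TGACG, searched on both strands, occurred in 9 of the 11 windows, compared with 20.8% of all 32817 promoter windows, and each of the 7 matched genes had at least 1 window with it. The windows of a gene can overlap and are not independent. In the windows printed, *Fos*, *Egr2*, and *Npas4* held 2 matches and *Nr4a1* held 4. The full palindrome TGACGTCA, which would contain TGACG, was in none of the 7 genes' windows and in 1.79% of all windows. A CArG box was found in 4 of the 11 windows, all of *Egr2*, beginning 72 bases before the start in the printed window, and 1.63% of all windows held one. The overlapping windows of *Egr2* held the same box, so they do not count as separate sites. The *Egr2* window from 67537316 to 67537615 does not overlap them and held a different box, also beginning 72 bases before its start. *Arc*, *Egr1*, and *Egr3* had no matched window, and bases further upstream were not searched for any gene. Whether CArG boxes are particular to *Egr2* among the immediate early genes was therefore not tested. The genes with TGACG in their windows include those that were higher, lower, and not called in infarcts. A match of letters is a description of the window and not evidence of binding.

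The EGR genes encode zinc finger transcription factors that bind the same GC-rich element. *Egr1* (ENSMUSG00000038418, chromosome 18, 34859823 to 34864984, GRCm38) is widely used as a marker of neuronal activity. It had 42.5, 66.2 and 62.2 CPM in infarcts 1, 2 and 3 and 243, 336 and 282 CPM in contralateral cortices 1, 2 and 3. All infarcts were thus far below the lowest contralateral library. The means were 57.0 ± 12.6 CPM in infarcts compared with 287 ± 46.8 CPM contralaterally (SD, n = 3 each), a 5.03-fold lower level in infarcts. The log2 fold change was -2.33 (standard error, SE, 0.21; adjusted *p* = 8.31e-06, edgeR).

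*Egr3* (chromosome 14, 70077203 to 70082614), which acts downstream of activity in neurons and is needed for muscle spindles, had 4.22, 2.42 and 3.96 CPM in infarcts. It had 25.6, 27.2 and 32.9 CPM in contralateral cortices, so that the regions were well apart. Its log2 fold change was -3.01 (SE 0.24, adjusted *p* = 4.21e-06, edgeR), an 8.06-fold lower level. *Egr4* (chromosome 6, 85511121 to 85513589) was counted least of the family in infarcts, with 6, 10 and 46 counts in infarcts 1, 2 and 3, or 0.478, 0.734 and 3.14 CPM. Its contralateral values were 11.6, 18.4 and 14.7 CPM. Infarct 3 was the highest infarct, as it was for the neuron markers. The log2 fold change of *Egr4* was -3.32 (SE 0.58, adjusted *p* = 0.00145, edgeR) and became -4.58 without infarct 3.

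*Egr2* (ENSMUSG00000037868, chromosome 10, 67535475 to 67542188), also known for hindbrain patterning and for myelination by Schwann cells, moved the opposite way. It had 15.8, 28.2 and 19.7 CPM in infarcts compared with 4.54, 3.13 and 6.46 CPM contralaterally. The lowest infarct was above the highest contralateral library. With means of 21.2 ± 6.36 CPM and 4.71 ± 1.67 CPM (SD, n = 3 each) it was 4.55-fold higher in infarcts, and its log2 fold change was 2.19 (SE 0.31, adjusted *p* = 1.83e-04, edgeR). Between 1.95 and 2.46 was fitted with any 1 library left out. Among the infarcts, *Egr2* was highest in infarct 2.

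The makeup of the EGR transcripts therefore differed between regions. *Egr2* took 25.0% of the summed counts of the 4 EGR genes in infarct 1 (95% Wilson interval 22.1% to 28.2%), 28.9% in infarct 2 (26.5% to 31.4%) and 22.1% in infarct 3 (19.9% to 24.4%). In contralateral cortices 1, 2 and 3 its share was 1.60% (1.30% to 1.97%), 0.812% (0.613% to 1.08%) and 1.92% (1.52% to 2.42%). The intervals cover counting error only, since PCR copies cannot be told from separate molecules here. The share of *Egr1* was 68.4% ± 1.30 in infarcts and 85.5% ± 1.71 in contralateral cortices (SD, n = 3 each), that of *Egr3* 4.55% ± 2.11 and 8.62% ± 1.39, and that of *Egr4* 1.68% ± 1.60 and 4.41% ± 0.358. Shares within a library do not depend on how libraries are scaled. Each of the 4 shares was free of overlap between regions, and an exact two-sided permutation test of 3 against 3 libraries gave *p* = 0.1 for each, the smallest value this design allows. The shares of a library add up to the whole, so the 4 are not separate results. A higher share of *Egr2* by itself lowers those of *Egr1*, *Egr3*, and *Egr4*, and shares without *Egr2* were not computed.

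**Figure D2:**
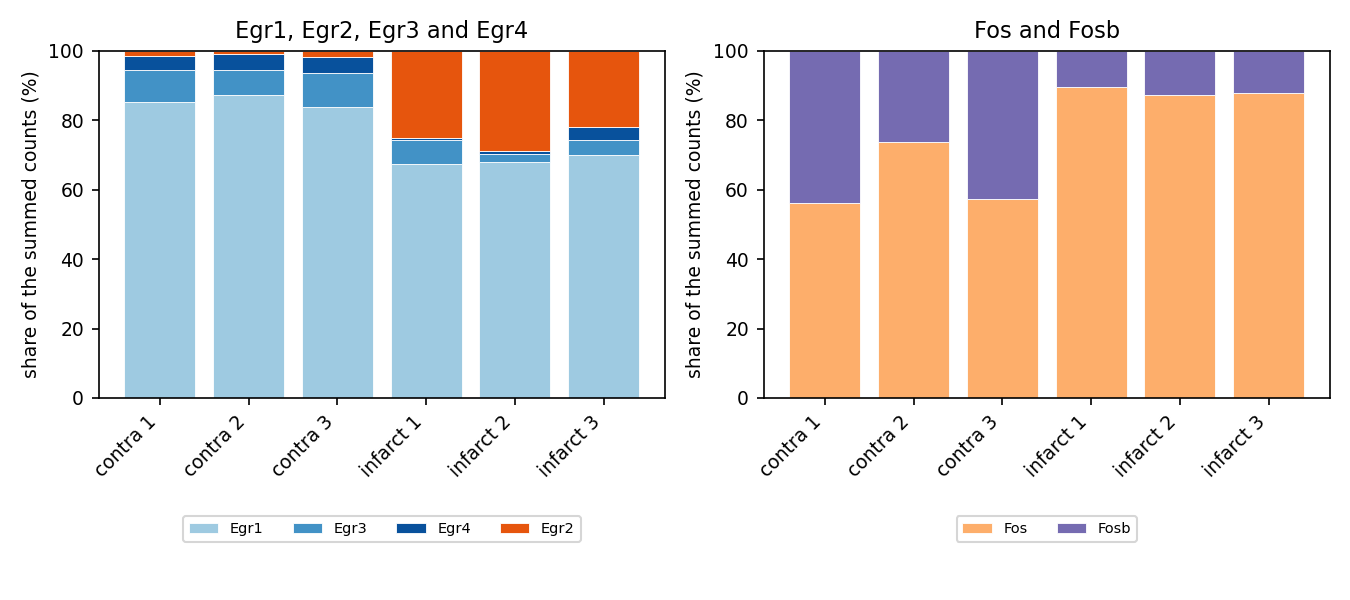
Share of the summed counts (%) taken by each EGR gene (left) and by *Fos* and *Fosb* (right) in each library. *Egr2* took 22.1% to 28.9% of EGR counts in infarcts but 0.812% to 1.92% in contralateral cortices, and *Fosb* took 10.5% to 12.8% of the counts of its pair in infarcts and 26.4% to 43.9% in contralateral cortices.

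FOS, FOSB, and JUNB are subunits of AP-1, a dimer of a FOS and a JUN protein. *Fos* (ENSMUSG00000021250, chromosome 12, 85473890 to 85477273) had 23.7, 28.5 and 26.8 CPM in infarcts compared with 15.6, 35.03 and 23.2 CPM contralaterally. The infarct values fell inside the contralateral range. The means were 26.3 ± 2.41 CPM in infarcts compared with 24.6 ± 9.81 CPM contralaterally (SD, n = 3 each). The log2 fold change was 0.10 with a 95% confidence interval from -0.50 to 0.71 (adjusted *p* = 0.76, edgeR). A difference of *Fos* within that interval, in either direction, is therefore not excluded. Leaving out contralateral cortex 1 gave -0.16 and leaving out contralateral cortex 2 gave 0.44, and it passed the threshold in neither case.

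*Fosb* (chromosome 7, 19302696 to 19310051), whose splice form ΔFosB accumulates with repeated activity, had 2.79, 4.19 and 3.75 CPM in infarcts compared with 12.2, 12.6 and 17.2 CPM contralaterally. The groups were separate, and the log2 fold change was -1.96 (SE 0.24, adjusted *p* = 7.74e-05, edgeR), a 3.88-fold lower level. Gene counts do not separate its splice forms. *Fosb* took 10.5%, 12.8% and 12.3% of the summed *Fos* and *Fosb* counts in infarcts 1, 2 and 3, with 95% Wilson intervals within 7.65% to 16.2%. In contralateral cortices it took 43.9%, 26.4% and 42.6%, with intervals within 23.3% to 48.1%. Its share was thus lower in every infarct than in any contralateral library (exact permutation *p* = 0.1, two-sided, the smallest possible).

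*Junb* (chromosome 8, 84974484 to 84978718), a JUN family subunit that is induced in many cell types, had 19.5, 16.9 and 21.9 CPM in infarcts compared with 8.72, 11.6 and 9.14 CPM contralaterally. Every infarct was above every contralateral library. Its log2 fold change of 0.98 (SE 0.19, adjusted *p* = 0.0014, edgeR) passed the test on *p* but fell just short of the fold threshold, with a fold change of 1.98 and a 95% confidence interval on the log2 scale from 0.55 to 1.42. It passed the fold threshold when infarct 1, infarct 2 or contralateral cortex 2 was left out, with log2 fold changes up to 1.12. Without infarct 3 the log2 fold change of *Junb* was 0.90. Exons of *Prdx2* on the opposite strand cover 7.52% of the exon bases of *Junb*. For none of the other 9 genes did exons of another gene overlap in GENCODE M21.

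*Arc* (ENSMUSG00000022602, chromosome 15, 74669083 to 74672570) encodes a protein of the postsynaptic site that promotes AMPA receptor removal. It had 3.35, 7.27 and 12.8 CPM in infarcts compared with 30.9, 79.4 and 50.6 CPM contralaterally. The regions were separate although both spread widely, from 3.35 to 12.8 CPM and from 30.9 to 79.4 CPM. The log2 fold change was -2.77 (SE 0.53, adjusted *p* = 0.00293, edgeR), or -3.31 without infarct 3. The mean level was 53.6 ± 24.4 CPM in contralateral cortices and 7.79 ± 4.73 CPM in infarcts (SD, n = 3 each).

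*Npas4* (chromosome 19, 4984355 to 4990316) encodes a bHLH-PAS factor that regulates inhibitory synapses on active neurons. It had 2.63, 4.33 and 7.17 CPM in infarcts compared with 24.1, 21.2 and 18.1 CPM contralaterally, with the regions separate. Its log2 fold change was -2.16 (SE 0.32, adjusted *p* = 2.86e-04, edgeR), a 4.46-fold lower level, and became -2.58 without infarct 3. Transcripts of this gene were counted in each infarct, with 33, 59 and 105 counts.

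*Nr4a1* (chromosome 15, 101254269 to 101274795) encodes an orphan nuclear receptor that is induced by activity in neurons and by inflammatory signals in macrophages. It had 15.5, 18.6 and 24.8 CPM in infarcts compared with 40.8, 84.1 and 46.2 CPM contralaterally. The regions were separate, and among the downregulated members this was the smallest change, with a log2 fold change of -1.54 (SE 0.30, adjusted *p* = 0.00184, edgeR). As for *Egr1*, *Egr4*, *Arc*, and *Fos*, contralateral cortex 2 was the highest library, and without it the log2 fold change of *Nr4a1* was -1.16. Without infarct 3 it was -1.74.

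To compare levels between genes, CPM was divided by the exon length of each gene in kilobases, joined over all its annotated exons. This length can exceed that of the transcripts present, which lowers the value. It was 6243 bases in 2 blocks for *Fosb*, and the order under other lengths was not tested. In contralateral cortices *Egr1* stood first with 64.0 ± 10.4 CPM per kilobase, above *Arc* with 17.5 ± 7.97 in every library. *Arc*, *Nr4a1* (16.3 ± 6.72) and *Fos* (10.5 ± 4.17) overlapped with their neighbors in the order, as did *Egr4*, *Egr3*, *Npas4*, and *Junb*, between 6.94 and 4.27 CPM per kilobase. *Fosb* (2.24 ± 0.445) and *Egr2* (1.39 ± 0.493) came last, each below its upper neighbor in all libraries. In infarcts the order changed. *Egr1* (12.7 ± 2.82) and *Fos* (11.2 ± 1.02) overlapped at the top and *Junb* (8.45 ± 1.09) came next, below *Fos* in all libraries. *Egr2* followed with 6.24 ± 1.87 CPM per kilobase, overlapping with *Junb* above it and *Nr4a1* (5.59 ± 1.35) below it. The remaining genes, *Arc*, *Npas4*, *Egr3*, *Egr4*, and *Fosb*, lay between 2.55 and 0.573 CPM per kilobase, all libraries of *Arc* being below those of *Nr4a1*, and overlapped with their neighbors among themselves.

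These changes were set beside the loss of neuronal transcripts in the same libraries. All 10 pan-neuronal markers were downregulated, with a median log2 fold change of -2.96, ranging from -3.84 for *Snap25*, a synaptic vesicle fusion protein, to -1.84 for *Thy1*. *Rbfox3*, which encodes the neuronal nuclear antigen NeuN, had a log2 fold change of -3.09. Of 10 excitatory neuron markers 9 were downregulated, with a median of -2.94. The exception was *Neurod6*, which had 1.83, 4.33 and 41.7 CPM in infarcts compared with 35.6 to 41.7 CPM contralaterally. All 8 inhibitory neuron markers were downregulated, with a median of -2.47 and a range from -3.89 for *Vip* to -1.66 for *Lhx6*. The part of neuron loss in the change of each immediate early gene was not tested.

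For each library, the mean log2 CPM of the 10 pan-neuronal markers was subtracted from the log2 CPM of each immediate early gene. On this scale, infarct minus contralateral differences were 5.11 for *Egr2*, 3.94 for *Junb*, 3.13 for *Fos*, 1.47 for *Nr4a1*, 1.03 for *Fosb*, and 0.72 for *Npas4*. For these 6 genes all infarcts lay above all contralateral libraries. The subtracted mean was 5.26 to 6.49 in infarcts and 8.61 to 8.90 in contralateral cortices, so a gene with unchanged CPM also rises on this scale. The share of all tested genes that separate on it was not computed, so the count of 6 has no background to be read against. The exact two-sided permutation *p* was 0.1 for each, the smallest that 3 against 3 libraries can give, and 0.167 when adjusted over the 10 genes. The differences were 0.61 for *Egr1*, 0.11 for *Arc*, -0.04 for *Egr3*, and -0.65 for *Egr4*, with overlapping regions and exact permutation *p* values from 0.2 to 1. For *Egr4* and *Egr1*, infarct 3 was the only infarct to overlap with contralateral libraries. Without it, the difference of *Egr4* was -1.03 and that of *Egr1* 0.88, with both remaining infarcts below, or above, all contralateral libraries. Without contralateral cortex 2, the regions were also separate for *Egr1*, with a difference of 0.81. For *Egr3* the overlap came from infarct 1, without which the difference was -0.46 and the regions were separate. For *Egr4*, *Egr1*, and *Egr3* these libraries were picked because they made the overlap. Separation without them follows from that choice and is not a test. *Arc* overlapped with any 1 library left out. For *Arc*, the mean was -3.01 ± 0.387 in infarcts and -3.11 ± 0.758 in contralateral cortices. *Npas4* was tightest in infarcts, at -3.64 ± 0.146, compared with -4.36 ± 0.310 in contralateral cortices (SD, n = 3 each).

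**Figure D3:**
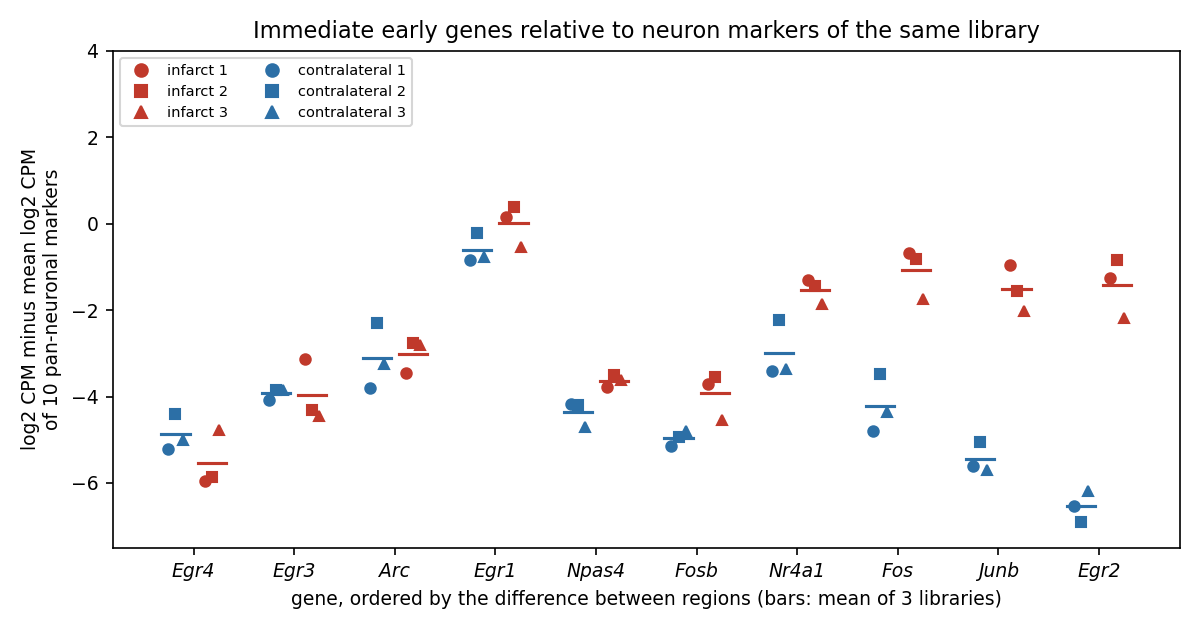
Log2 CPM of each immediate early gene minus the mean log2 CPM of 10 pan-neuronal markers in the same library, with bars at the mean of 3 libraries. From left to right the difference between regions goes from -0.65 for *Egr4* to 5.11 for *Egr2*, and the regions separate from *Npas4* onward.

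Markers of other cell types were mostly higher in infarcts, but not all of them, and astrocyte markers went both ways. All 10 microglia and macrophage markers were upregulated, with a median log2 fold change of 4.73, and their summed CPM was 6312 to 10105 in infarcts compared with 169 to 231 contralaterally. All 6 fibroblast and leptomeningeal markers were upregulated, with summed CPM of 4689 to 5820 and 140.4 to 175. Of 6 endothelial markers, 3 were upregulated (*Kdr*, *Pecam1*, and *Cdh5*), with summed CPM of 333 to 480.4 and 219 to 242. Of 6 oligodendrocyte markers 3 were upregulated, with summed CPM of 4103 to 6691 and 2131 to 2538. Of 6 astrocyte markers, 2 were upregulated and 1 downregulated, and their summed CPM was 4928 to 7321 in infarcts compared with 13024 to 14056 contralaterally. The 2 tested of 4 red blood cell markers were upregulated, with summed CPM of 7.49 to 24.1 and 0.391 to 3.24. Within these lists the log2 fold change ran from 1.96 (*Csf1r*) to 8.45 (*Lyz2*) for microglia and macrophages, from 1.502 (*Slc6a13*) to 7.28 (*Lum*) for fibroblasts, and from -0.14 (*Flt1*) to 2.06 (*Cdh5*) for endothelium. It ran from 0.73 (*Mag*) to 1.60 (*Mobp*) for oligodendrocytes and from -2.07 (*Slc1a2*) to 4.81 (*Gfap*) for astrocytes. None of the tested markers of these lists was at 0 counts in any library. In which of these cells *Egr2* and *Junb* were transcribed was not tested.

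Other genes of the same response were taken from lists. Of all tested genes 25.7% were upregulated and 20.9% downregulated, the background for the counts of each list below. Of 21 other rapid response transcription factors, 6 were upregulated, 1 was downregulated and 14 were not called, with a median log2 fold change of 0.51. The upregulated genes were *Atf3*, *Maff*, *Klf4*, *Klf2*, *Myc*, and *Klf6*. *Atf3*, a stress-induced relative of AP-1, had 279, 319 and 283 counts in infarcts compared with 2, 2 and 3 contralaterally, which made its level at least 103-fold higher when 3 counts per contralateral library were taken as the floor. *Klf6* was the most abundant of the list, at 230.4 ± 31.6 CPM in infarcts compared with 107 ± 4.16 CPM contralaterally. The downregulated gene was *Nr4a2*, a paralog of *Nr4a1*, with 12.03 ± 4.35 CPM in infarcts compared with 89.4 ± 15.7 CPM contralaterally, a log2 fold change of -2.89 (SE 0.28, adjusted *p* = 2.01e-05, edgeR). *Nr4a3*, the remaining gene of that family, had 22.1, 30.8 and 70.6 CPM in infarcts compared with 45.3 to 60.7 CPM contralaterally, and was not called (log2 fold change -0.33, adjusted *p* = 0.497, edgeR). The NR4A genes therefore also differed in their fold changes, with -1.54 for *Nr4a1*, although the differences between them were not tested.

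Among other genes of the JUN and FOS families, *Jun* had a log2 fold change of 0.72, *Jund* of -0.49, *Fosl2* of 0.48, and *Fosl1* of -0.51, none past the fold threshold. Of 14 AP-1 partners and relatives, 13 were tested, of which 7 were upregulated and 1 downregulated, with a median log2 fold change of 1.41. *Batf* was not tested, with 15, 9 and 4 counts in infarcts and 0 in all contralateral libraries. The downregulated gene was *Jdp2*, a repressor of AP-1 targets, with a log2 fold change of -1.68 (SE 0.18, adjusted *p* = 2.44e-05, edgeR).

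Of 21 rapid response feedback and effector genes, 7 were upregulated and 3 downregulated, with a median log2 fold change of 0.36. *Zfp36*, which promotes decay of cytokine and immediate early mRNAs, had 42.9 ± 3.62 CPM in infarcts compared with 3.47 ± 0.298 CPM contralaterally, a log2 fold change of 3.63 (SE 0.18, adjusted *p* = 3.13e-07, edgeR). *Nab1*, a corepressor of EGR proteins, had a log2 fold change of 1.09 and was upregulated, and *Nab2*, another one, had 0.51 and was not called. *Homer1*, whose short activity-induced form and long scaffold forms are pooled in gene counts, had the lowest value, with a log2 fold change of -3.61 (SE 0.27, adjusted *p* = 2.97e-06, edgeR). *Plk2* and *Spry2* were the other downregulated genes, at -1.27 and -1.51.

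Of 12 delayed activity-dependent neuronal genes, 11 were downregulated and *Pim1*, a kinase that cytokines also induce, was upregulated with a log2 fold change of 3.54. The median was -2.73. *Bdnf*, the neurotrophin, had 2.07, 8.00 and 13.7 CPM in infarcts compared with 60.0, 47.9 and 59.6 CPM contralaterally, and its log2 fold change was -2.81 (SE 0.56, adjusted *p* = 0.00365, edgeR). The lowest value was that of *Pcsk1*, a prohormone convertase, at -3.56, and the most abundant gene was *Rgs4*, with 75.7 ± 7.79 CPM in infarcts compared with 836 ± 118 CPM contralaterally.

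Upstream of the immediate early genes, 16 of 24 receptors, kinases, and transcription factors were downregulated, none was upregulated, and the median log2 fold change was -1.71. *Camk4*, a kinase that phosphorylates CREB, had the lowest value at -3.45, and *Camk2a* was the most abundant in contralateral cortices, at 2765 ± 87.5 CPM (SD, n = 3). It had 219, 245 and 782 CPM in infarcts 1, 2 and 3, below *Ppp3ca*, the calcineurin catalytic subunit, with 344, 447 and 815 CPM. *Mapk3* had the highest value, 0.62, and was not called. The factors that bind the CREB and SRF sites were not called, with log2 fold changes of -0.15 for *Creb1* (adjusted *p* = 0.425, edgeR) and -0.11 for *Srf* (adjusted *p* = 0.566, edgeR). *Mef2c* was downregulated with a log2 fold change of -3.04, and *Arnt2*, a partner of NPAS4, with -1.22.

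**Figure D4:**
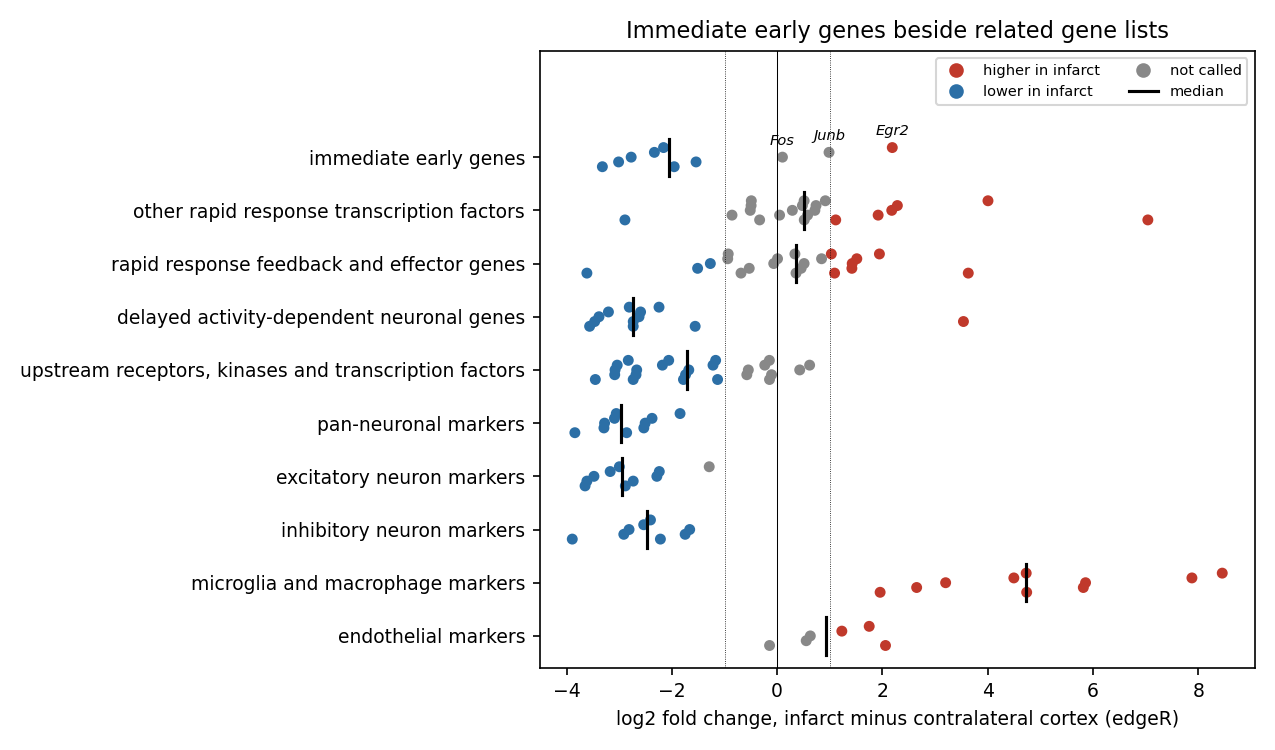
Log2 fold change (infarct minus contralateral cortex, edgeR) of each gene, by list, with points colored by call, a bar at the median of each list and dotted lines at the fold threshold. The immediate early genes span -3.32 to 2.19 with a median of -2.06, while the pan-neuronal markers have a median of -2.96 and the microglia and macrophage markers one of 4.73.

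The genes whose pattern over the 6 libraries came closest to *Arc*, *Fos*, and *Egr1* were sought among 11539 other genes with a mean of at least 5 CPM, by the root mean square difference of mean-centered log2 CPM. For *Arc* these were *Chrm4*, *Slc35f3*, and *Lgi1*, with differences of 0.25, 0.28 and 0.31. For *Fos* they were *Dusp5*, *Pex11a*, and *Ephb2*, with 0.15, 0.17 and 0.18, of which *Dusp5*, a phosphatase that acts on ERK, belongs to the feedback list. For *Egr1* they were *Inpp4a*, *4833422C13Rik*, and *Hrasls*, with 0.09, 0.10 and 0.10. With 6 libraries in 2 regions, many genes lie close to any given pattern, and the likeness carries no test.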

How the data were processed

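Infarcts and contralateral cortices (3 libraries each) were grouped by the sample titles. Per the paper's methods, the authors built stranded mRNA libraries, trimmed paired reads with Trimmomatic 0.32, aligned them to GRCm38 with STAR 2.5.2b and deposited raw counts per Ensembl gene from htseq-count. Its version, annotation and strand setting are not given in the sources used here. In each table, 5 tallies of reads assigned to no gene (26.6% to 34.3% of all reads tallied) were dropped. Symbols and positions came from GENCODE M21 on GRCm38, which matched 45143 of 46078 identifiers.

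Counts were tested in R 4.3.3 with edgeR 4.0.16 on all genes kept by filterByExpr (TMM scaling, region as the only term, robust glmQLFit and glmQLFTest, Benjamini-Hochberg adjustment over 15554 genes). Standard errors were derived from the fitted coefficient and its F statistic. Log2 CPM used a prior count of 2. Labels do not state separate mice within a region, so *p* values measure the spread between these samples. The procedure was tested on simulated data.

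The 10 genes and all lists were chosen with earlier results of these data known. Named genes follow a rule: the 10 members, in each list the highest and lowest fold change, the most abundant gene and relatives of members, and the 3 genes most like *Arc*, *Fos* and *Egr1*; *Mef2c*, *Creb1*, *Srf*, *Arnt2*, *Plk2*, *Spry2*, *Neurod6*, *Batf*, *Ppp3ca* and other called genes were added after their values were seen. A gene that the rule would name is not reported here. Alternatives were DESeq2 1.42.0, RLE size factors, library totals, no low-count filter, no fold threshold, a replicate block, excitatory markers as reference and each library left out. Tables and plots used Python 3.11.15, pandas 2.3.3 and matplotlib 3.10.9.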

Additional observations from a re-analysis of the deposited data

How the results depend on the processing

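The 7 downregulated genes kept their calls under DESeq2, RLE size factors, library totals, no filter, no fold threshold, the replicate block and with each library left out, 7 genes being called lower in each case. The count of upregulated genes was 1 in the main test and 2, by the addition of *Junb*, with library totals, with no filter on low counts, with no fold threshold and without infarct 1, infarct 2 or contralateral cortex 2, so that it ranged from 1 to 2 with a library left out. Scaling by library totals moved all genes by a median of 0.20 on the log2 scale. Of 15554 tested genes, it called 4528 higher and 2766 lower, against 3999 and 3256 in the main test. The added call of *Junb* in that setting thus came with a shift of all genes towards higher values. With no filter on low counts, 4661 of 27012 genes were called higher. Without infarct 1, infarct 2 or contralateral cortex 2, 4035 of 16070, 4133 of 16013 and 4028 of 15990 genes were called higher. The log2 fold change of *Fos* ranged from -0.16 to 0.44 with a library left out, and *Egr4* from -4.58 to -2.90. Relative to the neuron markers, *Egr3* ranged from -0.46 to 0.21 and *Arc* from -0.24 to 0.51 with a library left out, and *Egr3* was 0.054 against excitatory markers. The other 8 genes kept their direction on that scale with each library left out and against excitatory markers. Scaling nearly cancels in a difference within a library, and the replicate block does not enter this measure. Those alternatives therefore could not test it. With the replicate number as a block, the calls were 7 lower and 1 higher. Deviations of same-numbered libraries correlated at -0.19, 0.10 and 0.00. With 3 libraries in each of 2 unlike tissues, these values cannot decide whether same-numbered samples shared a mouse. With 3 libraries a region, the interval of *Fos* shows how far its own difference could not be resolved, and the exact permutation tests could not go below 0.1.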
